A study of Mus musculus with 15 samples.

Results

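TFIID is the general transcription factor that places RNA polymerase II at promoters, and the RNA of 10 of its subunits was followed here in mouse embryonic stem cells that had lost a SAGA subunit or MYC. The 10 genes were Tbp, Taf1, Taf2, Taf3, Taf4a, Taf4b, Taf7, Taf8, Taf11 and Taf13, the TFIID subunits that SAGA neither shares nor replaces with a close relative. They were found by symbol in the deposited count table, taking the most abundant row for each symbol, and all 10 were present among 37310 rows, of which 27832 had any count. All 10 passed the filter on low counts in every comparison. The count table named them Tbp (ENSMUSG00000014767), Taf1 (ENSMUSG00000031314), Taf2 (ENSMUSG00000037343), Taf3 (ENSMUSG00000025782), Taf4a (ENSMUSG00000039117), Taf4b (ENSMUSG00000054321), Taf7 (ENSMUSG00000051316), Taf8 (ENSMUSG00000023980), Taf11 (ENSMUSG00000024218) and Taf13 (ENSMUSG00000048100).

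The 15 libraries formed 5 groups of 3, all from J1, a male mouse embryonic stem cell line, grown in serum medium with LIF, the cytokine that holds such cells in the pluripotent state. The first experiment held Taf5l-KO cells, in which Taf5l was knocked out, Taf6l-KO cells, in which Taf6l was knocked out, and the wild-type J1 cells that served both (WT-Taf). The second held cMyc-KO cells, in which Myc was knocked out, and wild-type J1 cells of its own (WT-Myc). TAF5L and TAF6L belong to SAGA, a coactivator complex that modifies histones and delivers TBP, and MYC is a transcription factor that binds E-box sequences at many growth genes. The labels do not say how the knockouts were made or how many clones each group stands for, and the descriptions of the 3 cMyc-KO libraries share a code whose meaning is not given. Whether the replicates are separate cultures is not given either, so p-values reflect the spread among libraries, and that spread may be technical.

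Total counts per library ran from 14935631 to 27650813. RNA of the targeted genes was reduced in all libraries of the matching knockout, with log2 fold changes of -1.02 for Taf5l, -1.99 for Taf6l and -1.19 for Myc, and Myc RNA also fell in Taf5l-KO (-0.69) and in Taf6l-KO (-0.83). Summed CPM (counts scaled to library size) of 10 embryonic stem cell markers was high in every library but moved with the groups. It was 5184 to 5282 in WT-Taf against 4601 to 4714 in Taf5l-KO and 4541 to 4635 in Taf6l-KO, and 6434 to 6627 in WT-Myc against 7010.5 to 7314 in cMyc-KO. The matched neuroectoderm markers (5 of 6) summed to 78.9 to 81.9 CPM in WT-Taf against 47.9 to 50.2 in Taf5l-KO and 58.1 to 60.7 in Taf6l-KO, and to 100.9 to 109.1 in WT-Myc against 69.6 to 80.8 in cMyc-KO. Only 2 of them passed the filter on low counts, and these did not move together in the Taf knockouts. In Taf5l-KO 1 rose and 1 fell (0.92 and -0.80), as in Taf6l-KO (0.88 and -0.50), and both fell in cMyc-KO (-0.44 and -0.46). The 7 feeder fibroblast markers summed to between 4.27 and 9.0 CPM, with 3 or 4 of them under a mean of 1 count in each group, primitive endoderm markers to at most 9.72 and mesoderm markers to at most 8.79. Replicate 3 of cMyc-KO stood apart from replicates 1 and 2 of its group, with a chi-square over genes, divided by its degrees of freedom, of 36.4 and 26.3, against 2.68 to 14.1 for every other pair within a group, so the cMyc-KO results were also computed without it, and its removal is given where it changed a call, a direction or a value of a gene or list by over 1.5 times, and for each called subunit.

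TFIID is built around TBP, which binds and bends the DNA upstream of the start site, and around a set of TBP-associated factors (TAFs), several of which pair through histone folds into a lobed scaffold. Some TAFs read the promoter: TAF1 and TAF2 touch the DNA at and downstream of the start site, TAF1 has bromodomains that bind acetylated histones, and TAF3 has a PHD finger that binds trimethylated lysine 4 of histone H3. In embryonic stem cells the complex is known for supporting the pluripotency programme, and TAF3 for a further role outside TFIID in endoderm genes.

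Promoter sequence came from RefSeq (GRCm38.p6), which held an entry for 7 of the 10 genes in the table used here: Tbp, Taf1, Taf3, Taf4a, Taf8, Taf11 (with a pair of starts) and Taf13. In the 250 bases before each start, the E-box CACGTG, which reads the same on both strands and is the site MYC with its partner MAX is known to bind, was found in the window of Taf8 and in no other of these windows. It was present in 6.02% of 32851 promoter windows of that length. The TATA-box core TATAAA, searched on both strands, was found in the windows of Taf13 and of 1 of the Taf11 starts, and in 12.4% of all windows. The motifs do not overlap in any member window. The sequences below are those of the gene that rose most in cMyc-KO (Tbp), the gene that fell most in the Taf knockouts (Taf1), and the genes with an E-box (Taf8) or a TATA box next to the start (Taf13). Each runs 5′ to 3′ on the gene's own strand and ends at the last base before the RefSeq start, and capitals mark the motifs. For Tbp only the 136 bases outside the first exon of its divergent neighbour Psmb1 are shown.
Tbp, chr17:15499752-15499887, plus strand: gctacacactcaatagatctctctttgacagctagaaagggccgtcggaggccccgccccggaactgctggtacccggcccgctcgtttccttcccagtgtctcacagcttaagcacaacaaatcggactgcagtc
Taf1, chrX:101532485-101532734, plus strand: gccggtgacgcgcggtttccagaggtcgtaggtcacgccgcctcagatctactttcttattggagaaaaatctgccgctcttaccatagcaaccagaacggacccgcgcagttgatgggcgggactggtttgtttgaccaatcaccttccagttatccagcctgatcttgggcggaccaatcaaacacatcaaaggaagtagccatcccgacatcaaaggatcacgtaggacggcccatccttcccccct
Taf8, chr17:47502292-47502541, minus strand: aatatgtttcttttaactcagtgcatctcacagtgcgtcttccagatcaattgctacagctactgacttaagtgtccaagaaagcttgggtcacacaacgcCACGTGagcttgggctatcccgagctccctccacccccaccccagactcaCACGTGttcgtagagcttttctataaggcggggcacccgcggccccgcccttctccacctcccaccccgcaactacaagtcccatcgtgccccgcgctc
Taf13, chr3:108571449-108571698, plus strand: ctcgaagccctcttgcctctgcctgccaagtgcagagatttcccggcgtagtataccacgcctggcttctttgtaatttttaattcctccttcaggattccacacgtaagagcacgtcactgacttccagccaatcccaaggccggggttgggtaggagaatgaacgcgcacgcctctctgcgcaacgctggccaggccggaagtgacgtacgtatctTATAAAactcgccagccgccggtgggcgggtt
The Taf8 window held CACGTG at 2 places, beginning 149 and 99 bases before the start, and the Taf13 window held TATAAA beginning 32 bases before it. These matches describe the letters only.

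The subunit genes were compared in wild-type cells first, on a scale that divides by length. By the deposited FPKM (fragments scaled to gene length and library size), the order in WT-Taf was Tbp at 349.7 ± 6.52 (SD, n = 3), Taf7 at 127.9 ± 5.16, Taf1 at 125.9 ± 4.599, Taf13 at 91.5 ± 13.9, Taf4a at 70.7 ± 2.49, Taf11 at 56.7 ± 4.59, Taf3 at 42.1 ± 3.81, Taf8 at 37.8 ± 2.15, Taf4b at 17.8 ± 0.314 and Taf2 at 16.4 ± 0.182. The libraries of Taf7 and Taf1 overlapped, as did those of Taf3 and Taf8, and every other pair of neighbours in the order was apart. In WT-Myc, whose FPKM belong to another experiment, Tbp (298.4 ± 16.2), Taf7 (142.6 ± 1.93) and Taf1 (108.8 ± 4.21) again led. Taf2 (16.3 ± 0.390) and Taf4b (14.2 ± 0.862) again closed the order. Between them came Taf8 (70.2 ± 4.27), Taf4a (68.8 ± 11.4), Taf13 (64.7 ± 20.1), Taf11 (57.9 ± 2.75) and Taf3 (54.3 ± 2.72). Each of these overlapped the next, except that Taf3 was apart from Taf2. Among all genes tested in WT-Taf, Tbp lay at percentile 90.2 of FPKM and Taf2 at percentile 46.6.

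The order depended on the length used, most of all for Tbp and Taf2. The length of Tbp implied by its deposited counts and FPKM was 0.191 kb in WT-Taf, against 13.6 kb for the union of its exons in GENCODE M21. Over the tested genes the median ratio of implied to exon length was 0.186, and the ratio of Tbp, 0.0140, lay at percentile 1.93. Dividing CPM by M21 exon length instead put Tbp at rank 9 in WT-Taf (4.97 ± 0.197 CPM per kb) and at rank 10 in WT-Myc (3.68 ± 0.213), while Taf7 led in both (38.9 ± 1.23 and 43.7 ± 1.01 CPM per kb). Taf2, at or near the bottom by FPKM, was at rank 4 in WT-Taf (10.99 ± 0.101 CPM per kb) and rank 3 in WT-Myc (11.9 ± 0.254). In WT-Taf, Taf11 was at rank 10 (4.58 ± 0.210) and Taf4b at rank 5 (8.15 ± 0.129). Taf1 was at rank 2 on that scale in both wild types, at 15.5 ± 0.297 and 14.86 ± 1.13 CPM per kb.

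**Figure D1:**
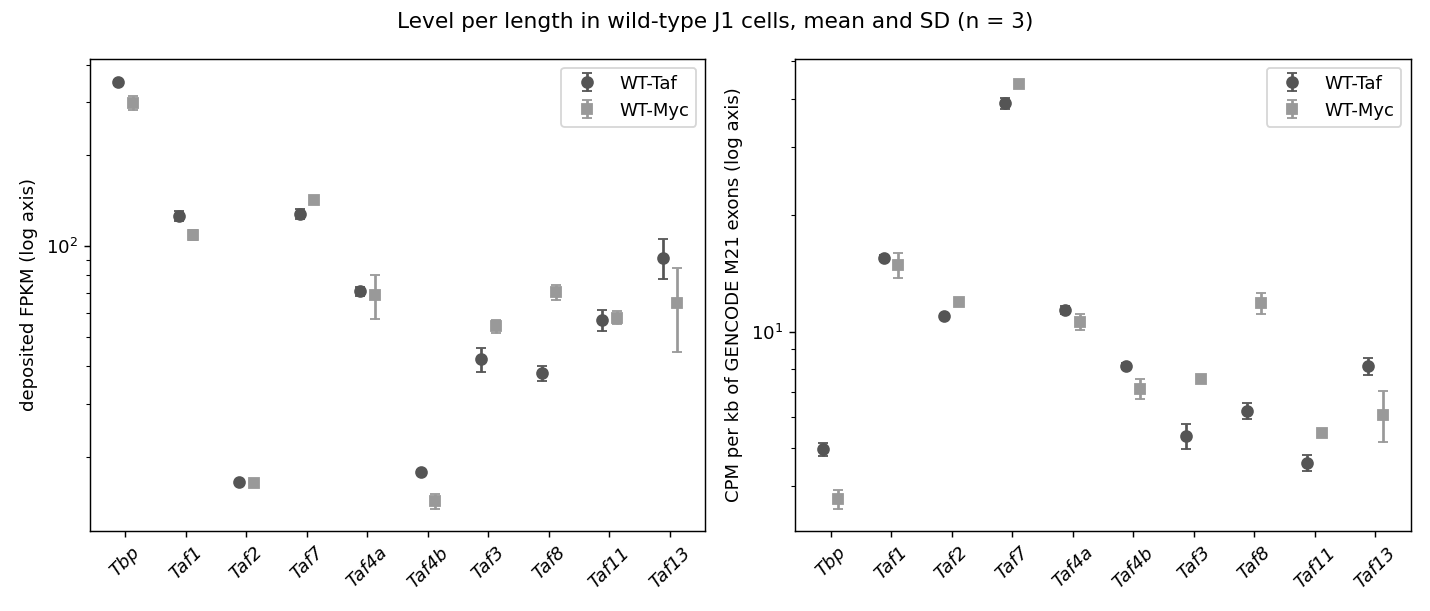
RNA level of the 10 TFIID subunit genes in the wild-type groups WT-Taf (circles) and WT-Myc (squares), mean and SD of 3 libraries, on log axes: deposited FPKM on the left and CPM per kb of GENCODE M21 exon on the right. Tbp is the highest point on the left (349.7 in WT-Taf) and among the lowest on the right (4.97), Taf2 is low on the left (16.4) and mid to high on the right (10.99), and Taf7 is near the top on both.

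The knockouts were set against their own wild types to ask which of these genes changed when TAF5L, TAF6L or MYC was lost. In Taf5l-KO, Taf7 and Taf4a rose and Taf1 and Taf2 fell. In Taf6l-KO, Taf7 rose and Taf1, Taf2 and Taf4b fell. In cMyc-KO, Tbp, Taf7 and Taf11 rose and none fell. Taf7, a subunit that binds TAF1 and restrains its activity, was called higher in all 3 knockouts. All called changes of the 10 genes were smaller than 2-fold, from -0.45 (Taf1 in Taf6l-KO) to 0.63 (Tbp in cMyc-KO) on the log2 scale.

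The calls came from edgeR's quasi-likelihood test at a Benjamini-Hochberg adjusted p under 0.05, adjusted over all genes tested. In Taf5l-KO 2 of the 10 rose and 2 fell, and of 15743 genes tested 33.2% were called, 17.4% higher and 15.9% lower. In Taf6l-KO 1 rose and 3 fell, against 37.2% of all genes called, 19.1% higher and 18.2% lower. In cMyc-KO 3 rose and 0 fell, against 34.8% of 14563 genes called, 15.2% higher and 19.5% lower. At an unadjusted p under 0.05 none of the 10 was lower in cMyc-KO either, and DESeq2 also called 0 lower. Without cMyc-KO replicate 3 the same counts, 3 higher and 0 lower, were called. The share of the 10 genes called in either direction was near that of all genes in each knockout. With only 10 genes, the absence of lower calls in cMyc-KO beside 19.5% of all genes was not tested. The 10 embryonic stem cell markers moved in the same libraries: 2 rose and 5 fell in Taf5l-KO, 0 rose and 7 fell in Taf6l-KO, and 4 rose and 1 fell in cMyc-KO (4 and 0 without replicate 3). Their part in the changes of the subunit genes was not tested. With library totals in place of the scaling, higher calls made up 69.0% of all calls in Taf6l-KO, against 51.2%.

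The 3 knockout libraries lay wholly above the 3 wild-type libraries for 2 of the 10 genes in Taf5l-KO and wholly below for 3, against 22.7% and 22.0% of all genes (44.7% either way). In Taf6l-KO 2 genes lay wholly above and 3 wholly below, against 25.4% and 23.5% (49.0% either way). In cMyc-KO 4 lay wholly above and 1 wholly below, against 22.9% and 26.7% (49.6% either way). The median log2 fold change of the 10 genes was -0.0035 in Taf5l-KO, -0.055 in Taf6l-KO and 0.043 in cMyc-KO, beside 0.00054, 0.020 and -0.0018 over all genes tested, and the cMyc-KO median was -0.057 without replicate 3. Their median size of change, sign aside, was 0.092, 0.078 and 0.11, beside 0.17, 0.19 and 0.23 over all genes. Sizes below those of all genes were not particular to the 10. The median was 0.062, 0.090 and 0.12 for 32 Mediator subunits and 0.099, 0.14 and 0.18 for 12 RNA polymerase II subunits. For the 6 other TFIID subunits it was 0.34, 0.25 and 0.22. In bulk RNA, fewer cells of a type and less RNA per cell cannot be told apart. The Taf5l-KO and Taf6l-KO comparisons share the WT-Taf libraries, so their values are given side by side and not counted as separate support.

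**Figure D2:**
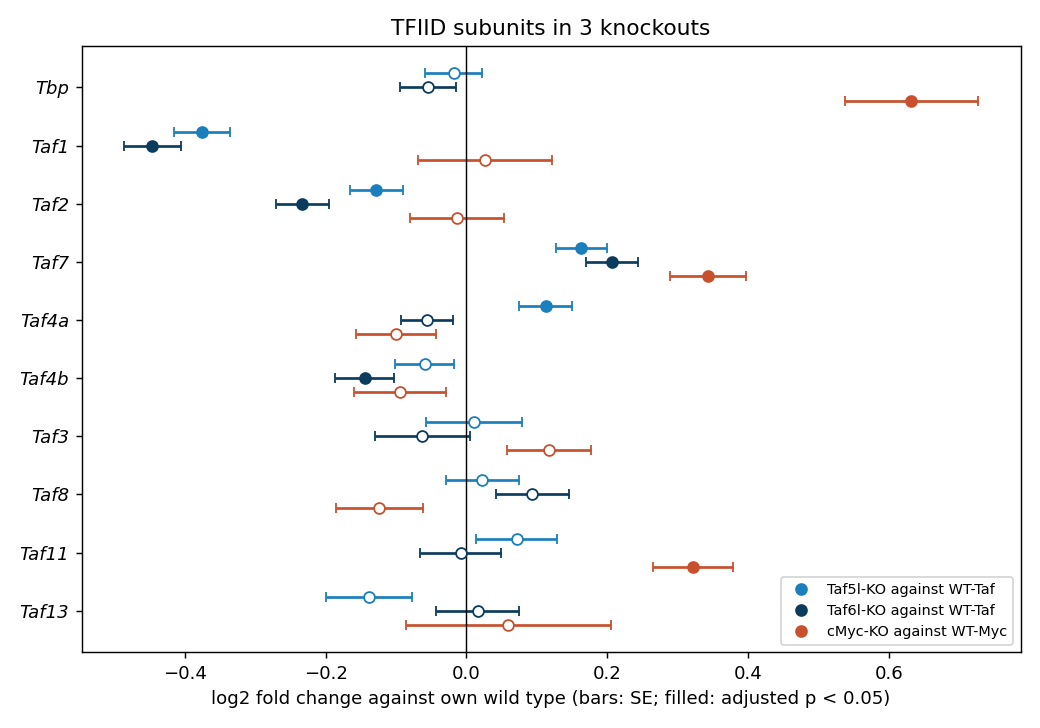
Log2 fold change of the 10 TFIID subunit genes against the own wild type (points) with its standard error (bars) in Taf5l-KO, Taf6l-KO and cMyc-KO; filled points have an adjusted p under 0.05. Taf1 sits lowest in the Taf knockouts (-0.37 and -0.45), Tbp highest in cMyc-KO (0.63), and Taf7 lies to the right of 0 in all 3.

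Tbp encodes the TATA-binding protein, the subunit that TFIID shares with the factors of RNA polymerases I and III. Its level was 51.2, 52.1 and 46.7 CPM in WT-Myc and 71.0, 72.7 and 88.5 CPM in cMyc-KO, so every knockout library lay above every wild-type library and replicate 3 was the highest. The log2 fold change was 0.63 ± 0.094 (SE; edgeR, adjusted p = 0.00177), a 1.55-fold level, and 0.54 without cMyc-KO replicate 3. In the Taf experiment Tbp was 64.3, 68.9 and 69.0 CPM in WT-Taf, 68.1, 67.4 and 64.1 in Taf5l-KO, and 63.6, 65.9 and 65.2 in Taf6l-KO. These groups overlapped, with log2 fold changes of -0.018 ± 0.040 (edgeR, adjusted p = 0.770) and -0.055 ± 0.040 (adjusted p = 0.311).

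Genes next to Tbp moved with it in cMyc-KO. Psmb1, which encodes a proteasome subunit and starts 137 bases away on the other strand in GENCODE M21, rose by 0.70 ± 0.045 (edgeR, adjusted p = 4.06e-05), and Pdcd2, whose exons overlap those of Tbp over 2582 bases on the opposite strand, rose by 0.47 ± 0.058 (adjusted p = 0.000740). In the Taf knockouts Psmb1 rose (0.20 in Taf5l-KO and 0.19 in Taf6l-KO) and Pdcd2 did not pass the threshold (-0.043 and -0.054). Of 13 genes tested within 1 Mb of Tbp, 6 rose and 2 fell in cMyc-KO, with a median of 0.24, or 0.086 without replicate 3. Over all genes 15.2% rose and 19.5% fell there. In each Taf knockout 4 of the 13 rose and 2 fell (medians -0.043 in Taf5l-KO and -0.21 in Taf6l-KO). The shares of all genes were 17.4% higher and 15.9% lower in Taf5l-KO, and 19.1% and 18.2% in Taf6l-KO. The library kit named in the labels keeps strand, but whether the counting used it is not given, so the value of Tbp is uncertain to the extent that reads of Pdcd2 were counted in it. Their part in the result was not tested.

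The genes whose pattern was most like that of Tbp were named by the Pearson correlation of log2(CPM + 1) over all 15 libraries, each centred on its experiment's wild-type mean, among 8769 genes with a mean of at least 10 CPM. They were Psma4 (r = 0.981), which encodes another proteasome subunit, Hnrpdl (r = 0.980), an RNA-binding protein, and B3galnt1 (r = 0.980), a glycosyltransferase. Their log2 fold changes in cMyc-KO were 0.36, 0.60 and 0.82, and in Taf5l-KO -0.038, -0.050 and -0.026. The libraries share their scaling and their group structure, so the correlations are descriptions.

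Taf1 encodes the largest subunit, which carries the bromodomains. It was 129.9, 133.0 and 135.0 CPM in WT-Taf, 102.5, 98.6 and 105.7 in Taf5l-KO, and 100.7, 91.8 and 99.3 in Taf6l-KO, so both knockouts lay wholly below the wild type. It fell by 0.37 ± 0.040 (SE) on the log2 scale in Taf5l-KO (edgeR, adjusted p = 6.49e-06) and by 0.45 ± 0.040 in Taf6l-KO (adjusted p = 8.66e-07). These were the largest changes of any of the 10 genes in the Taf knockouts. In the Myc experiment Taf1 was 136.8, 127.3 and 117.5 CPM in WT-Myc and 115.7, 126.1 and 146.7 in cMyc-KO, groups that overlapped (0.026 ± 0.096, adjusted p = 0.857, and -0.053 without cMyc-KO replicate 3).

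Taf1 is the only 1 of the 10 genes on the X chromosome, and X-linked genes around it were lower in the Taf knockouts. Of 23 other genes tested within 1 Mb of its start, a window chosen after values were seen, 13 fell and 0 rose in Taf5l-KO (median -0.39), and 17 fell and 0 rose in Taf6l-KO (median -0.46). In cMyc-KO 5 of 22 fell and 3 rose (median -0.042), or 5 and 4 without cMyc-KO replicate 3. From 5 to 20 Mb on the side of lower coordinates, 20 of 29 genes fell in Taf5l-KO and 18 in Taf6l-KO, with 0 rising in either. On the other side at that distance, 5 and 3 of 21 fell and 3 rose in each. From 1 to 5 Mb, 6 and 4 of 12 fell on the lower side and 0 rose. On the other side 18 and 21 of 30 fell and 1 rose in each. Past 20 Mb, 86 and 93 of 280 fell on the lower side, and 30 and 40 rose. On the other side 28 and 36 of 168 fell, and 30 and 29 rose. Over the whole X chromosome 177 of 564 genes fell and 64 rose in Taf5l-KO (31.4% and 11.4%), and 193 fell and 73 rose in Taf6l-KO (34.2% and 12.9%). For cMyc-KO 91 of 538 fell and 87 rose (16.9% and 16.2%, median 0.019). Without cMyc-KO replicate 3, 125 of 547 fell and 102 rose (median -0.034). Over all chromosomes 15.9%, 18.2% and 19.5% of genes fell in Taf5l-KO, Taf6l-KO and cMyc-KO, and 17.4%, 19.1% and 15.2% rose. The part of this region in the change of Taf1 was not tested.

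**Figure D3:**
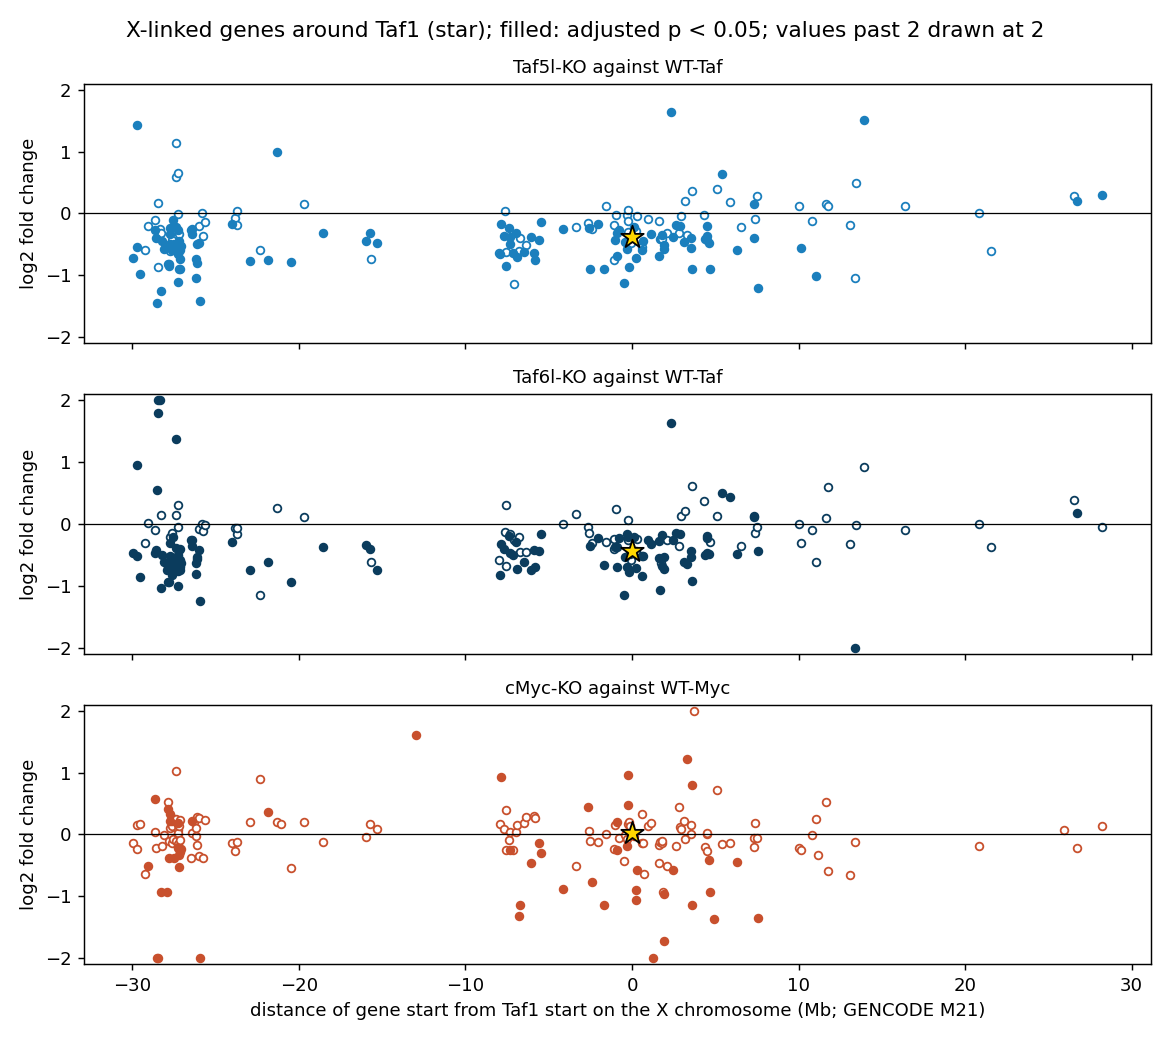
Log2 fold change of X-linked genes against the distance of their start from the start of Taf1 (star), in Mb by GENCODE M21, in Taf5l-KO, Taf6l-KO and cMyc-KO against the own wild type; filled points have an adjusted p under 0.05 and values past 2 are drawn at 2. Within 1 Mb of Taf1, 13 and 17 of 23 genes fell in the Taf knockouts, against 5 of 22 in cMyc-KO.

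Taf7 and Taf2 act beside TAF1. Taf7 was 128.3, 132.7 and 124.6 CPM in WT-Taf, 137.7, 146.1 and 148.2 in Taf5l-KO, and 145.7, 148.7 and 151.0 in Taf6l-KO. Both knockouts lay wholly above the wild type, and the log2 fold changes were 0.16 ± 0.037 (SE; edgeR, adjusted p = 0.00343) and 0.21 ± 0.036 (adjusted p = 0.000476). In Taf5l-KO the call was not kept by limma-trend on log2(FPKM + 1) without a filter (0.18, adjusted p = 0.0536), the highest of its alternatives, the lowest being 0.000694. In the Myc experiment it was 148.1, 141.5 and 143.8 CPM in WT-Myc and 173.4, 183.1 and 193.2 in cMyc-KO, again wholly apart, with a log2 fold change of 0.34 ± 0.054 (adjusted p = 0.00225) and of 0.32 without cMyc-KO replicate 3.

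Taf2, an aminopeptidase-like subunit that contacts DNA at the start site, was 75.5, 75.0 and 76.4 CPM in WT-Taf, 66.4, 71.1 and 70.0 in Taf5l-KO, and 65.0, 65.6 and 62.5 in Taf6l-KO. Every library of both knockouts lay below every wild-type library. Taf2 fell by 0.13 ± 0.037 (SE) in Taf5l-KO (edgeR, adjusted p = 0.0160) and by 0.23 ± 0.037 in Taf6l-KO (adjusted p = 0.000198). The Taf5l-KO call ended under 6 of 16 alternatives: when Taf5l-KO replicate 1 was left out (-0.10, adjusted p = 0.0584), without WT-Taf replicate 3 (-0.12, 0.0520), in DESeq2 (-0.13, 0.0583), and in the 3 limma-trend settings on FPKM (-0.13 in each, adjusted p from 0.112 to 0.207). Over all alternatives the log2 fold change ran from -0.15 to -0.10 and the lowest adjusted p was 0.00749. In cMyc-KO Taf2 was 76.5, 78.9 and 88.8 CPM against 82.1, 84.0 and 80.5, groups that overlapped (-0.013 ± 0.067, adjusted p = 0.898, and -0.061 without cMyc-KO replicate 3).

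Taf4a and Taf4b encode paralogous scaffold subunits that pair with TAF12 and contact activators, and TAF4B is known for its role in the germ line. Taf4a was 53.9, 52.7 and 51.2 CPM in WT-Taf, 57.7, 56.3 and 56.8 in Taf5l-KO, and 49.5, 50.9 and 51.6 in Taf6l-KO. It lay wholly above the wild type in Taf5l-KO (0.11 ± 0.037 SE; edgeR, adjusted p = 0.0323) and overlapped it in Taf6l-KO (-0.056 ± 0.038, adjusted p = 0.270). The Taf5l-KO value kept its sign, from 0.089 to 0.17 over all settings run, but its call was lost under 12 of 16 alternatives. These were library totals (0.089, adjusted p = 0.150), no filter (0.101), DESeq2 (0.199), all 15 libraries in a fit (0.126), the 3 limma-trend settings on FPKM (0.341 to 0.435), and leaving out Taf5l-KO replicate 1 (0.0774), 2 (0.0505) or 3 (0.0694) or WT-Taf replicate 2 (0.0824) or 3 (0.117).

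Taf4b was 41.6, 41.5 and 42.7 CPM in WT-Taf, 40.1, 39.9 and 40.7 in Taf5l-KO, and 38.3, 36.2 and 39.1 in Taf6l-KO, so both knockouts lay wholly below by a small margin. It fell by 0.14 ± 0.042 (SE) in Taf6l-KO (edgeR, adjusted p = 0.0141) and was at -0.059 ± 0.042 in Taf5l-KO (adjusted p = 0.314). The Taf6l-KO call was lost under 6 of 16 alternatives: with library totals (-0.076, adjusted p = 0.236), in DESeq2 (-0.16, 0.0740), without Taf6l-KO replicate 2 (-0.12, 0.0611), and in the 3 limma-trend settings on FPKM (-0.15 to -0.16, adjusted p = 0.0555 to 0.105). The lowest adjusted p over all settings run was 0.00989. In the Myc experiment Taf4a was 46.6, 50.9 and 49.5 CPM in WT-Myc and 46.7, 44.0 and 46.4 in cMyc-KO (-0.10 ± 0.057, adjusted p = 0.215). Taf4b was 39.1, 36.3 and 34.6 CPM in WT-Myc and 32.6, 35.5 and 34.9 in cMyc-KO (-0.094 ± 0.065, adjusted p = 0.306). Both overlapped their wild type.

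Taf3 and Taf8 encode histone-fold subunits that pair with TAF10, and TAF8 also links TAF2 to the complex. Neither passed the threshold in any knockout. Taf3 was 31.3, 36.1 and 35.5 CPM in WT-Taf, 32.6 to 35.7 in Taf5l-KO and 29.8 to 34.6 in Taf6l-KO, and it lay wholly above the wild type in cMyc-KO (51.5, 49.8 and 55.7 CPM against 48.4, 49.3 and 47.1; 0.12 ± 0.060 SE, edgeR, adjusted p = 0.169). Taf8, with its pair of E-boxes, lay wholly below in cMyc-KO (48.8, 48.7 and 50.7 CPM against 50.8, 53.0 and 57.6; -0.12 ± 0.062, adjusted p = 0.161) and wholly above in Taf6l-KO (29.5 to 31.0 CPM against 26.8 to 29.3; 0.094 ± 0.051, adjusted p = 0.172). With library totals the value of Taf8 in Taf6l-KO passed the threshold (0.16, adjusted p = 0.0304), and its adjusted p reached 0.577 under the other settings.

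Taf11 and Taf13 encode a histone-fold pair that contacts TBP. Taf11 was 30.3, 30.2 and 29.7 CPM in WT-Myc and 35.6, 38.0 and 39.2 in cMyc-KO, wholly apart, and rose by 0.32 ± 0.057 (SE; edgeR, adjusted p = 0.00389), or by 0.31 without cMyc-KO replicate 3. Its exons overlap those of Anks1 on the opposite strand over 341 bases in GENCODE M21. Anks1 rose by 0.20 in cMyc-KO (adjusted p = 0.0281) and also in Taf5l-KO (0.29) and Taf6l-KO (0.23), where Taf11 did not pass the threshold. The part of Anks1 reads in the value of Taf11 was not tested.

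In the Taf experiment Taf11 stayed between 23.5 and 27.5 CPM over the 9 libraries, with log2 fold changes of 0.071 in Taf5l-KO and -0.0083 in Taf6l-KO. Taf13 was 27.0, 24.4 and 25.7 CPM in WT-Taf and 21.8, 24.4 and 23.5 in Taf5l-KO (-0.14 ± 0.061 SE, edgeR, adjusted p = 0.0975), 26.1, 24.5 and 27.0 in Taf6l-KO (0.016 ± 0.059), 21.9, 19.6 and 16.2 in WT-Myc and 18.1, 18.03 and 23.8 in cMyc-KO (0.060 ± 0.15, and -0.065 without replicate 3). Its SE of 0.15 in the Myc experiment was the largest of the 10 genes, which makes it the least precise value.

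**Figure D4:**
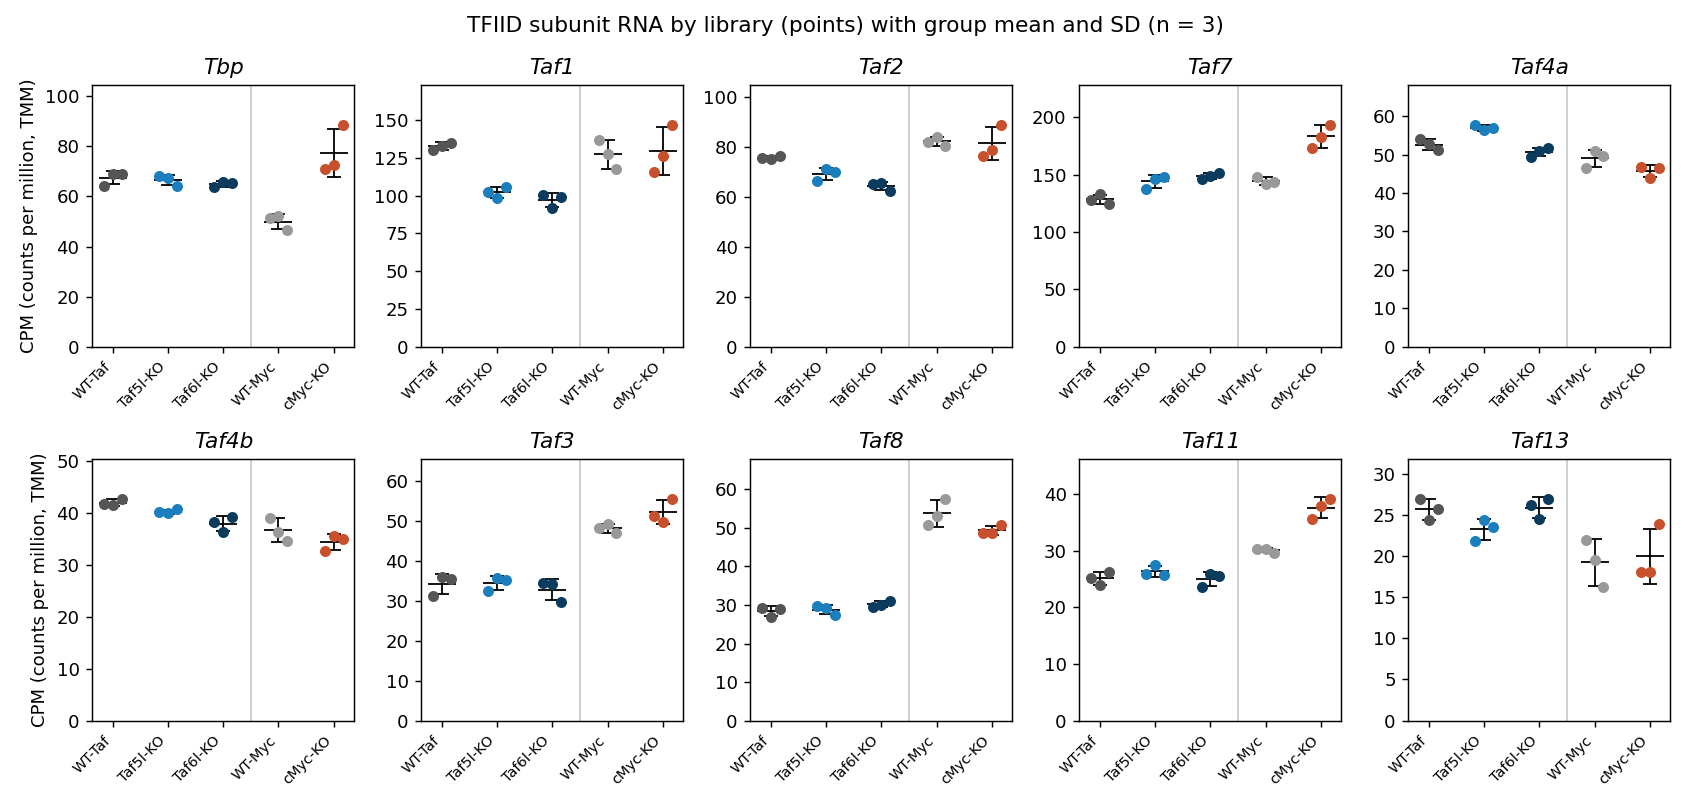
CPM of each TFIID subunit gene in the 15 libraries (points) with the mean and SD of each group of 3 (bars); the vertical line parts the Taf experiment from the Myc experiment, which were scaled separately. Taf1 is lower in both Taf knockouts (91.8 to 105.7 CPM) than in WT-Taf (129.9 to 135.0), and Tbp, Taf7 and Taf11 are higher in cMyc-KO than in WT-Myc.

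The direct comparison of Taf6l-KO with Taf5l-KO asked whether the 10 genes differed between the Taf knockouts. Taf4a was lower in Taf6l-KO by 0.17 ± 0.037 (SE; edgeR, adjusted p = 0.00555), with every Taf6l-KO library below every Taf5l-KO library, and 0 genes were higher. Over all genes 18.7% were called, 8.55% higher and 10.1% lower. The libraries of 1 of the 10 genes lay wholly above in Taf6l-KO and those of 3 wholly below, against 17.2% and 17.5% of all genes (34.7% either way). At an unadjusted p under 0.05, 1 of the 10 was higher, Taf13 (0.15 ± 0.060, adjusted p = 0.0883), and 2 were lower, Taf4a and Taf2 (-0.10 ± 0.037, adjusted p = 0.0645). Taf2 passed the threshold without Taf5l-KO replicate 1 (-0.13, adjusted p = 0.0271). The Taf4a call was lost on FPKM and with library totals (-0.077, adjusted p = 0.238), over a range of adjusted p from 0.00498 to 0.875. With library totals 3 genes were called higher (Taf7, Taf8 and Taf13), and higher calls made up 83.1% of all calls in place of 45.8%.

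The effects of the Taf knockouts and of the Myc knockout were set against each other in a fit of all 15 libraries, as the mean of the Taf5l-KO and Taf6l-KO effects minus the cMyc-KO effect. Of the 10 genes, 5 had a lower effect in the Taf knockouts, Tbp, Taf1, Taf11, Taf2 and Taf7, and 0 a higher effect. Of 16286 genes tested 35.3% were called, 16.9% higher and 18.4% lower. The largest difference was that of Tbp, at -0.71 ± 0.087 (SE; edgeR, adjusted p = 1.13e-05), or -0.61 without cMyc-KO replicate 3. In the 3 limma-trend settings on FPKM the calls of Taf2 (-0.19 to -0.21, adjusted p = 0.0759 to 0.118) and of Taf7 (-0.18, adjusted p = 0.0585 to 0.0711) were lost. At an unadjusted p under 0.05, 0 of the 10 were higher and 6 lower, and DESeq2 also called 0 higher. The experiments differ in their wild-type libraries and deposition, so genotype and experiment cannot be told apart here beyond each group's own wild type.

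The 6 other TFIID subunits, which SAGA shares or replaces with a relative, were Taf5, Taf6, Taf9, Taf9b, Taf10 and Taf12. In Taf5l-KO 1 of the 6 rose and 3 fell, in Taf6l-KO 1 rose and 3 fell, and in cMyc-KO 3 rose and 1 fell. Over all genes 33.2%, 37.2% and 34.8% were called in these knockouts, and the 6 were not tested as a set against that. Taf5, the scaffold subunit whose relative TAF5L replaces it in SAGA, rose in all 3 knockouts (0.29, 0.22 and 0.26), from 40.6 ± 0.249 CPM (SD, n = 3) in WT-Taf to 49.5 ± 2.06 in Taf5l-KO. Taf9 fell in the Taf knockouts (-0.42 and -0.38) and rose in cMyc-KO (0.24), and Taf12, the partner of TAF4, fell in the Taf knockouts (-0.40 and -0.46). Taf9b, the close copy of Taf9 at 2.04 ± 0.369 CPM in WT-Taf, fell in Taf5l-KO (-0.90) and in cMyc-KO (-0.94), and its start lies 4.69 Mb from that of Taf1. Taf10, the partner of TAF3 and TAF8, fell in Taf6l-KO (-0.20) and rose in cMyc-KO (0.20). Taf6 passed the threshold in no knockout. The median of the 6 was -0.17, -0.24 and 0.11 in Taf5l-KO, Taf6l-KO and cMyc-KO.

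Other parts of the polymerase II machinery were counted the same way, to be read beside the shares of all genes called. Those were 17.4% higher and 15.9% lower in Taf5l-KO, 19.1% and 18.2% in Taf6l-KO, and 15.2% and 19.5% in cMyc-KO. No list was tested as a set against these shares. Among 17 subunits of TFIIA, TFIIB, TFIIE, TFIIF and TFIIH, the factors that join TFIID at the promoter, 1 rose and 6 fell in Taf5l-KO, 2 rose and 5 fell in Taf6l-KO, and 3 rose and 3 fell in cMyc-KO (4 and 3 without cMyc-KO replicate 3, where Ercc2 was also called, at 0.21). Gtf2f2, of TFIIF, fell by 0.32 and Gtf2h1, of TFIIH, rose by 0.21 in Taf5l-KO, and Ercc2, a TFIIH helicase, fell by 0.39 in Taf6l-KO. In cMyc-KO Gtf2b, which encodes TFIIB, the factor that binds TBP on promoter DNA, fell by 0.75. Gtf2a1, of the TFIIA that steadies TBP on DNA, fell by 0.72. Gtf2a2, the other TFIIA subunit listed, rose by 0.52, or by 0.34 without cMyc-KO replicate 3, and Tbp also rose.

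Among 12 subunits of RNA polymerase II, 1 rose and 3 fell in Taf5l-KO, 0 rose and 5 fell in Taf6l-KO, and 3 rose and 1 fell in cMyc-KO, or 7 and 1 without cMyc-KO replicate 3. Polr2a, the catalytic subunit, fell in Taf5l-KO (-0.18) and in cMyc-KO (-0.26). Polr2d (0.29) and Polr2i (0.32) were among the 3 that rose in cMyc-KO, where the list median was 0.16. Of 32 Mediator subunits, the coactivator that bridges activators and polymerase, 1 rose and 5 fell in Taf5l-KO, 5 rose and 7 fell in Taf6l-KO, and 2 rose and 6 fell in cMyc-KO (4 and 7 without cMyc-KO replicate 3). Med13 (0.36) and Med1 (0.27) rose in Taf6l-KO, and Med22 fell by 0.58 in cMyc-KO. The Mediator list ran from -0.30 to 0.41 in Taf6l-KO (median -0.0066) and from -0.58 to 0.67 in cMyc-KO (median 0.012).

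Complexes that use TBP outside TFIID, or factors that regulate it, had 11 tested genes of 13 listed. Of these 1 rose and 3 fell in Taf5l-KO, 1 rose and 2 fell in Taf6l-KO, and 0 rose and 3 fell in cMyc-KO, also 0 and 3 without replicate 3, with Taf1d (-0.39, adjusted p = 0.00965) called in place of Drap1 (-0.13, adjusted p = 0.105) and a median of -0.043 in place of -0.12. Bdp1, a subunit of the polymerase III factor TFIIIB, rose in the Taf knockouts (0.17 and 0.12) and fell in cMyc-KO (-0.43). Btaf1, which removes TBP from DNA, fell in Taf6l-KO (-0.13), and Taf1c, of the polymerase I factor SL1, fell in Taf5l-KO (-0.24) and in cMyc-KO (-0.31).

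**Figure D5:**
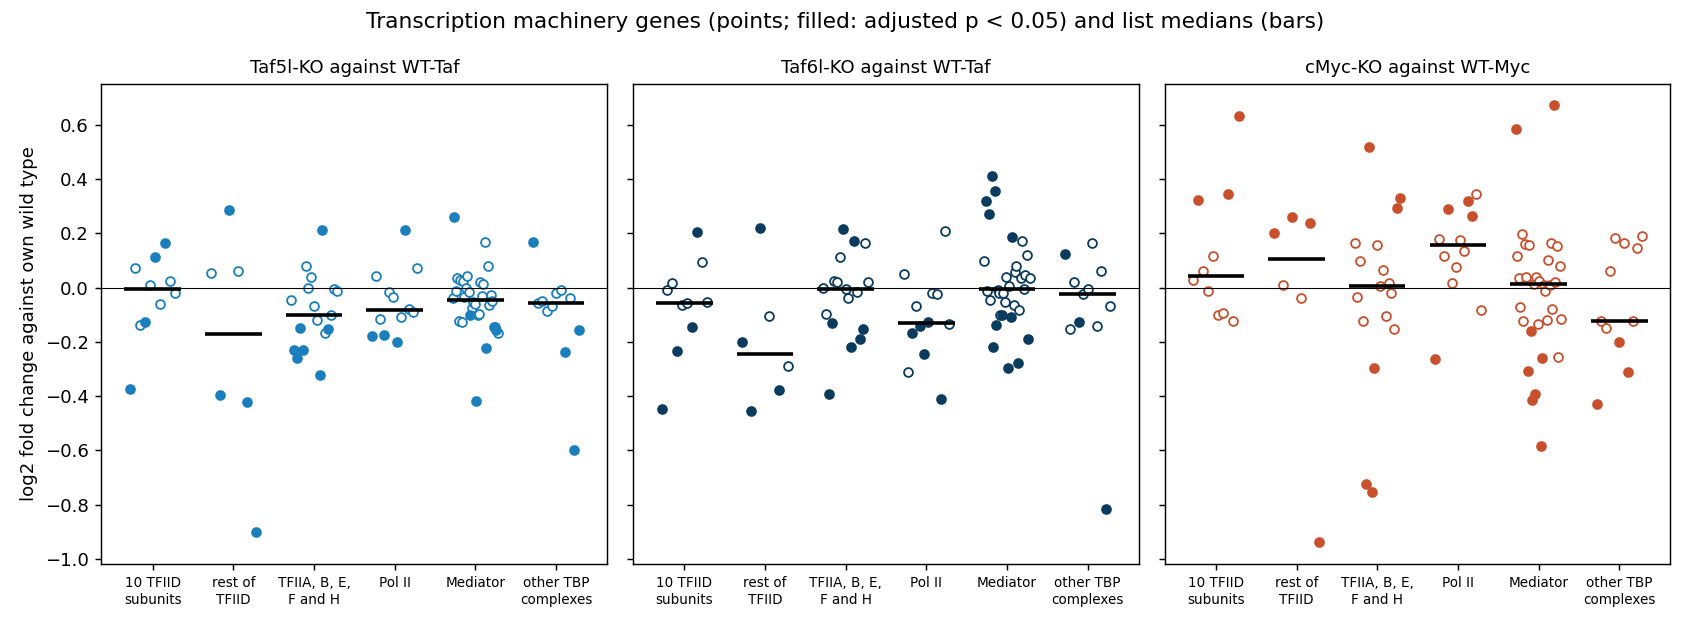
Log2 fold change against the own wild type of the 10 TFIID subunit genes and 5 lists of other transcription machinery genes in the 3 knockouts (points; filled have an adjusted p under 0.05), with list medians as bars. The medians of the 10 genes lie near 0 (-0.0035, -0.055 and 0.043), and those of the 6 other TFIID subunits at -0.17, -0.24 and 0.11.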

How the data were processed

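RNA-seq libraries were made from ribosomal RNA-depleted total RNA with a strand-keeping kit, per the labels' protocols. The estimated count of each gene was deposited as a whole number, and the authors also deposited FPKM values. Named in the submitters' processing notes, without roles, are DESeq2 1.14.1, Salmon 0.8.2 and the mm9 build, with the gene annotation not given in the sources used here. A deposited table with 15 columns of per-sample values was not used, because its column names could not be assigned to samples.

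Samples were grouped by title. The test was the quasi-likelihood F-test of edgeR 4.0.16 (in R 4.3.3) after filterByExpr and TMM scaling. Its p-values were adjusted over all genes by Benjamini-Hochberg, and 0.05 was the threshold. Separate fits were made for the Taf experiment (9 libraries) and the Myc experiment (6 libraries), and the difference between knockout effects in a fit of all 15. The standard error is the log2 fold change divided by the square root of F. The biological coefficient of variation was 4.23% and 10.2%. Each library was counted once. Counts of every pair of replicates differed by more than sampling noise, which does not show whether the replicates are separate cultures. The procedure was tested on simulated counts.

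The genes and lists were chosen with earlier results of these data known. Named genes were the 10 subunits, the 6 other TFIID subunits, the targeted genes, up to 3 called genes by smallest p per other list and comparison, of which examples are given, and the 3 genes most like the most changed subunit. Genes near the 10 (Psmb1, Pdcd2 and Anks1) and Gtf2a2 were named after values were seen. GENCODE M21 (GRCm38) gave chromosomes, distances and exon overlaps, and 32620 rows (87.4%) had an ID in it. Some rows repeat a symbol (3386), Taf9 among them. Alternatives were DESeq2 1.42.0, scaling by RLE or by library totals, no filter, the replicate number as a block, all 15 libraries or only the groups compared in a fit, each library left out, and limma-trend (limma 3.58.1) on log2 FPKM, with a pseudocount of 0.1 or 1 and a minimum mean FPKM of 0.5, or with 1 and no minimum. Figures were drawn with Python 3.11.15 and matplotlib 3.10.9.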

Additional observations from a re-analysis of the deposited data

Results flagged for a closer look

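Knockout effects, each against its own wild type, differed between the Taf and Myc experiments for 5 of the 10 TFIID subunit genes. The difference was tested in edgeR over all 15 libraries. Of all 16286 genes tested, 35.3% were called in the same test, 16.9% higher and 18.4% lower. The mean Taf knockout effect minus the cMyc knockout effect was -0.71 ± 0.087 (SE, log2) for Tbp (adjusted p = 1.13e-05), with a rise in the 3 cMyc-KO libraries and no call in the Taf knockouts. It was -0.48 ± 0.090 for Taf1 (adjusted p = 0.000620), which was lower in 6 of 6 Taf knockout libraries. It was -0.33 ± 0.071 for Taf11 (adjusted p = 0.00175) and -0.21 ± 0.063 for Taf2 (adjusted p = 0.0165). For Taf7 it was -0.20 ± 0.056 (adjusted p = 0.0108), a gene that rose in each knockout and more in cMyc-KO. The differences of Taf2 and Taf7 were no longer called by limma-trend on FPKM, with adjusted p from 0.0759 to 0.118 and from 0.0585 to 0.0711.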

How the results depend on the processing

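The falls of Taf1 in both Taf knockouts and of Taf2 in Taf6l-KO, the rise of Taf7 in Taf6l-KO, and the rises of Tbp, Taf7 and Taf11 in cMyc-KO kept their direction and their side of the threshold under every alternative run, Tbp with log2 fold changes from 0.54 to 0.71. The alternatives that ended or made a call of 1 of the 10 genes are given beside the gene above or below, and the causes were not tested. Values of genes and lists outside the 10 without cMyc-KO replicate 3 were added after seeing the data. With 3 libraries a group and a biological coefficient of variation of 10.2% in the Myc experiment, small changes may have gone undetected there. Values below that changed sign were not called in either setting.

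With library totals, Taf5l-KO had 1 of the 10 genes called higher, Taf6l-KO 2 of them higher and 1837 genes lower, and Taf6l-KO against Taf5l-KO 3045 genes higher and 618 lower, with 3 of the 10 higher and 0 lower. Changed signs under it were Taf3 (-0.013) and Taf8 (-0.0010) in Taf5l-KO, and Taf3 (0.0054), Taf4a (0.013), Taf11 (0.060) and Tbp (0.014) in Taf6l-KO. In Taf6l-KO against Taf5l-KO they were Taf1 (0.020), Taf3 (0.018), Taf4b (0.0065), Taf11 (0.013) and Tbp (0.056). Taf2 in cMyc-KO was 0.0036 with RLE scaling, 0.026 with library totals, 0.0082 without the filter, 0.0038 in DESeq2, 0.018 with all 15 libraries in a fit, and 0.015 or 0.016 on FPKM.

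In Taf5l-KO 1 of the 10 was called higher without the filter, in DESeq2 (and 1 lower) and with all 15 libraries in a fit, where Taf3 was -0.00069. DESeq2 called 780 genes higher in Taf6l-KO against Taf5l-KO. All 15 libraries in a fit called 803 higher and 844 lower in that comparison and 3518 higher in cMyc-KO.

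On log2(FPKM + 1), log2(FPKM + 0.1) and log2(FPKM + 1) without a filter, in that order, Taf5l-KO had 1391, 1418 and 1134 genes higher, 1242, 1245 and 1082 lower, 1, 1 and 0 of the 10 higher and 1 lower in each. Taf6l-KO had 1375, 1383 and 1139 higher and 1743, 1741 and 1514 lower. In cMyc-KO 1636, 1640 and 1493 genes were lower, and 1212 higher without a filter. Taf6l-KO against Taf5l-KO had 364, 356 and 296 higher, 562, 567 and 426 lower, and 0 of the 10 lower in each. The difference between the Taf and Myc effects had 1980, 1962 and 1860 genes lower and 3 of the 10 lower in each, with Taf2 and Taf7 lost. Changed signs on FPKM, for pseudocounts of 1 and 0.1, were Taf3 (-0.046, -0.047) and Taf13 (0.116, 0.118) in Taf5l-KO, Taf4a (0.112, 0.113) in Taf6l-KO, Taf1 (-0.0267, -0.0270) and Taf13 (-0.0325, -0.0323) in cMyc-KO, Taf1 (0.0180, 0.0181) and Taf3 (0.0060, 0.0061) in Taf6l-KO against Taf5l-KO, and Taf13 (0.181, 0.183) in the difference between effects.

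Leaving out each library gave 1 to 2 of the 10 higher and 1 to 2 lower in Taf5l-KO, 1 to 2 lower in Taf6l-KO against Taf5l-KO, and 1364 (without WT-Myc replicate 2) to 2876 (without cMyc-KO replicate 3) genes higher in cMyc-KO. Signs changed in ranges for Tbp (-0.052 to 0.0067), Taf3 (-0.053 to 0.054) and Taf8 (-0.017 to 0.054) in Taf5l-KO, for Taf3 (-0.127 to 0.0060), Taf11 (-0.044 to 0.035) and Taf13 (-0.024 to 0.053) in Taf6l-KO, and for Taf1 (-0.053 to 0.106), Taf2 (-0.061 to 0.034) and Taf13 (-0.065 to 0.160) in cMyc-KO. Without WT-Taf replicate 1, Taf3 passed the threshold in the difference between effects (-0.24, adjusted p = 0.0450).

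Deviations of same-numbered replicates had correlations from -0.45 to 0.068, and the best differently numbered ones from -0.019 to 0.36. In Taf6l-KO against Taf5l-KO the same-numbered correlation was higher for replicate 2 (0.068 against 0.0087) and replicate 3 (0.040 against -0.019). With 3 libraries a group these correlations cannot decide whether the numbers pair the samples, and the main fits used no pairing. With the replicate block, 1216 genes were higher in cMyc-KO, and the numbers of the 10 genes called were unchanged in every comparison.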
